A study of Mus musculus with 4 samples.

Results

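The cells described here carry the label NK and other innate lymphoid cells of the mouse fracture callus, the repair tissue that bridges a broken bone. They were chosen by measured values in the callus libraries. A barcode (the tag of 1 droplet, taken as 1 cell) was kept with at least 500 UMIs, at least 200 genes and at most 10% mitochondrial UMIs, where a UMI is 1 counted RNA molecule. It was then selected on at least 3 UMIs summed over 5 rule genes (Nkg7, Ncr1, Klrb1c, Gzma and Eomes), no UMI of Cd3d, Cd3e, Cd3g or Cd79a, under 1% of UMIs from Col2a1 and under 1% from S100a8 and S100a9 together. In build mm10 the rule genes lie at chr7:43437073-43438249 (Nkg7), chr7:4337724-4345164 (Ncr1), chr6:128778485-128789215 (Klrb1c), chr13:113093825-113100981 (Gzma) and chr9:118478212-118486132 (Eomes). The rule found 264 members among 14451 filtered callus barcodes, 127 of 7133 in the control callus and 137 of 7318 in the GC callus, and the whole series held 23216 filtered barcodes. The mice were 20-week-old C57BL/6J males. They received the glucocorticoid (GC) prednisolone at 6.25 mg/kg/d or placebo (control), and fracture callus or trabecular bone was collected at week 2. The sample labels describe subcutaneous slow-release pellets, whereas the methods describe injection in the fracture model. Callus and trabecular bone each gave 1 placebo and 1 GC library, and the number of mice behind a library was not given in the sources used here. The callus matrices held 95852254 UMIs (control, every droplet listed) and 64388215 UMIs (GC, only barcodes of at least 500 UMIs listed), so these totals are not like for like. The members held 713067 and 526343 of them. Bone pieces were crushed, digested with Collagenase II, Dispase II and DNase I and strained, so the cells were not sorted by type.

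Natural killer (NK) cells are lymphocytes that kill without a rearranged antigen receptor. They weigh signals from germline-encoded activating and inhibitory receptors, release perforin and granzymes from granules, and secrete interferon gamma and chemokines. The T-box factors Eomes and T-bet direct their development, and interleukin 15, read through the chain encoded by Il2rb, keeps them alive. The other innate lymphoid cells (ILC1, ILC2 and ILC3) live mainly in tissues and make the cytokines that helper T cells also make. Glucocorticoids act on lymphocytes through the nuclear receptor encoded by Nr3c1.

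With 1 library per condition no test between control and GC was possible, since cells of 1 library are not replicates. Levels are given as counts per 1000000 summed UMIs (CPM) with exact Poisson 95% intervals, and shares of cells with exact Clopper-Pearson 95% intervals. Both cover counting error only. A difference between libraries is given as a log2 ratio of CPM with 5 CPM added to each side, and a gene with at least 20 UMIs over both libraries was compared with a fold of 2. Genes tested are those that reached this minimum. In such sums, fewer expressing cells and less RNA per cell cannot be told apart except where shares of cells are given.

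The label held for most members and not for all. Clustering, made without the rule genes, split off 35 members whose 10 leading genes were Mpo, Prtn3, Elane, Ctsg, Ms4a3, Alox5ap, Cpa3, Mcpt8, Spi1 and Ifitm1. Mpo, Prtn3, Elane and Ctsg encode proteins of the primary granules of myeloid precursors, and Cpa3 and Mcpt8 proteases of mast cells and basophils. These Mpo-led members, 25 in the control callus and 10 in the GC callus, had median depths of 15650 UMIs (control) and 17068 UMIs (GC). Il2rb, a gene of NK cells outside the rule, was found in 14 of the 25 and 4 of the 10. The cluster was mixed: 12 control and 4 GC cells of it had no Mpo UMI and at least 2 Il2rb UMIs, and all 16 held Irf8, while its 9 control and 6 GC cells with Mpo held at most 1 Il2rb UMI each. Scoring of simulated doublets removed 11 of those 16 cells and 0 of the 15 with Mpo. The criterion, set with the clusters in view, was at least 3 markers of another class among a cluster's 10 leading genes, erythroid markers not counted. A cluster of 60 cells led by H2-Eb1, with Cd74 also among its leading genes, fell short of it and was kept. A cluster of 74 cells led by 4 hemoglobin genes was kept too. No cluster had a listed NK or innate lymphoid marker among its 10 leading genes. Il2rb was at 2811 CPM in the H2-Eb1-led cluster and 2944 CPM in the hemoglobin-led one. The other 229 members, called the lymphoid members from here on, had medians of 2970 UMIs (102 cells, control) and 2358 UMIs (127 cells, GC). Through their depth the Mpo-led members carried 54.4% of the control members' UMIs and 33.3% of the GC members' UMIs, so they weighed more in the control sum over all members than in the GC sum.

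**Figure D1:**
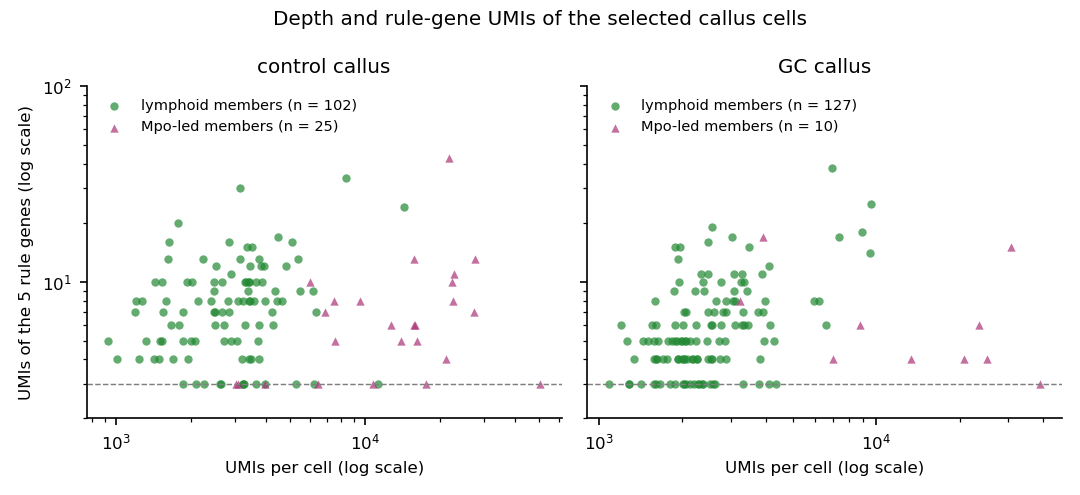
Total UMIs per cell (horizontal, log scale) against UMIs of the 5 rule genes (vertical, log scale) for every member, with the control callus on the left and the GC callus on the right; the dashed line is the threshold of 3 rule UMIs. Most Mpo-led members (triangles) lie to the right of the lymphoid members (circles), and the control panel holds 25 of them against 10.

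The rule genes were found at different rates in the lymphoid and the Mpo-led members. In the lymphoid members Eomes was found in 90 of 102 control cells and 111 of 127 GC cells, Gzma in 87 and 109, and Nkg7 in 65 and 66. Ncr1, which encodes the NK receptor NKp46, was found in only 8 and 12 of them, and Klrb1c, which encodes NK1.1, in 11 and 14. The lymphoid members entered through Eomes and Gzma more often than through these surface markers, and 96 of 102 and 121 of 127 held at least 2 of the 5 rule genes. Of the Mpo-led members, 11 of 25 and 3 of 10 held at least 2 rule genes, and Nkg7 was the rule gene found in the most of them (20 of 25 and 8 of 10). Eomes was found in 9 of 25 and 4 of 10 of the Mpo-led members.

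Il2rb, which the rule did not use, was found in most cells with exactly 3 rule UMIs, the threshold, and in most with 2. Among barcodes with exactly 3 rule UMIs, 18 of 20 (control) and 25 of 26 (GC) held Il2rb. Just outside, among barcodes with 2 rule UMIs that met every other clause, 18 of 24 and 16 of 20 held it. With 1 rule UMI the counts were 13 of 28 and 26 of 39, so cells with Il2rb lie outside the rule as well. No member's barcode was found among the filtered barcodes of the other callus library, and the callus libraries shared 12 filtered barcodes in all.

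The lymphoid members carried an NK program in genes outside the rule. Il2rb was at 3621 CPM (3417 to 3834) in the control and 2893 CPM (2718 to 3077) in the GC callus, and was found in 102 of 102 and 126 of 127 cells. Xcl1, which encodes a chemokine that attracts dendritic cells, was at 606 CPM (524 to 697) and 564 CPM (488 to 649). In callus T cells (at least 2 UMIs of Cd3d, Cd3e and Cd3g, no Cd79a, the same filters; 180 control and 227 GC cells) Il2rb was at 1348 and 995 CPM and Xcl1 at 141 and 178 CPM. In callus B cells (at least 2 Cd79a UMIs, no CD3 gene; 422 and 197 cells) Xcl1 had no UMI. With every cell thinned to 1000 UMIs, Il2rb was found in 97.0% and 93.7% of lymphoid members, 68.7% and 63.0% of T cells, and 0.482% and 1.57% of B cells. The source of the Il2rb UMIs in B cells was not tested.

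Receptor genes of the NK lectin families set the lymphoid members apart from T cells. Klra8 (Ly49H, an activating Ly49 receptor) was at 239.9 CPM in the control and 276 CPM in the GC lymphoid members and had no UMI in T cells of either library. Klra4 was at 283 and 311 CPM, against 0 and 3.38 CPM in T cells. Klri2 was at 237 and 177 CPM, against 2.98 and 7.88 CPM in T cells, and Klrb1b, an inhibitory receptor, at 175 and 125 CPM against 1.49 and 0 CPM. In each of these genes both libraries of lymphoid members lay above both libraries of T cells. Klrk1, which encodes NKG2D, was less separate, at 338 and 351 CPM against 141 and 149 CPM. Of the paired receptor genes, Klrd1 was at 83.1 and 94.1 CPM against 59.6 and 51.8 CPM in T cells, and Klrc1, at 145 and 143 CPM against 152 and 111 CPM, was about as high in T cells. The Klra genes are near-identical copies of each other, so how reads were divided among them is uncertain.

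Signalling and effector genes followed. Fcer1g and Tyrobp encode adaptors that carry the signal of receptors without signalling tails of their own. Fcer1g was at 1437 and 1086 CPM in the control and GC lymphoid members against 195 and 133 CPM in T cells, and Tyrobp at 658 and 465 CPM against 119 and 69.8 CPM. Lat, a scaffold of T cell receptor signalling, had the opposite order, at 21.5 and 17.1 CPM against 261 and 231 CPM. Among the killing genes, Gzma was a rule gene, Prf1 (perforin) was at 92.3 and 131 CPM against 31.3 and 15.8 CPM in T cells, and Gzmb at 73.8 and 108 CPM against 28.3 and 18.0 CPM. Fasl, which encodes the ligand of the death receptor Fas, was at 160 and 194 CPM against 64.0 and 100.1 CPM. Serpinb9 and Serpinb6b encode inhibitors of the granzyme family, which shield killer cells from their own granules. Serpinb9 was at 378 and 265 CPM against 78.9 and 59.6 CPM in T cells, and Serpinb6b at 283 and 188 CPM against 40.2 and 41.6 CPM. The chemokine gene Ccl5 was shared with T cells, at 6285 and 6019.8 CPM against 5173 and 3931 CPM. Ifng was found in 9 control and 9 GC lymphoid members, at 33.8 and 42.8 CPM.

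Transcription factor genes came next. Of 16 tested besides the rule gene Eomes, 4 were at least 2-fold higher than in T cells in both libraries and 2 lower. Irf8 was at 2969 CPM (2784 to 3162) in the control and 1770.0 CPM (1634 to 1915) in the GC lymphoid members, and at 19.4 and 23.6 CPM in T cells. B cells, in which Irf8 is also active, had 238 CPM in the control. Runx3 was at 966 and 1077 CPM against 360.4 and 377 CPM in T cells, and Id2, needed by all innate lymphoid cells, at 732 and 769.6 CPM against 338 and 339 CPM. Tbx21, which encodes T-bet, was at 80.0 and 77.0 CPM against 32.8 and 40.5 CPM. Nfil3, which NK precursors need, was at 185 and 197 CPM against 71.5 and 46.1 CPM. Bcl11b, a T cell identity factor, had 6.15 CPM in the control and no UMI in the GC lymphoid members, against 255 and 179 CPM in T cells. Trac was found in 4 of 102 and 3 of 127 lymphoid members, against 61.7% and 67.4% of T cells, whereas Trbc1 was found in 70 and 67 lymphoid members. At least 1 of Trac, Trbc1 and Trbc2 was found in 72 of 102 (70.6%) and 79 of 127 (62.2%).

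**Figure D2:**
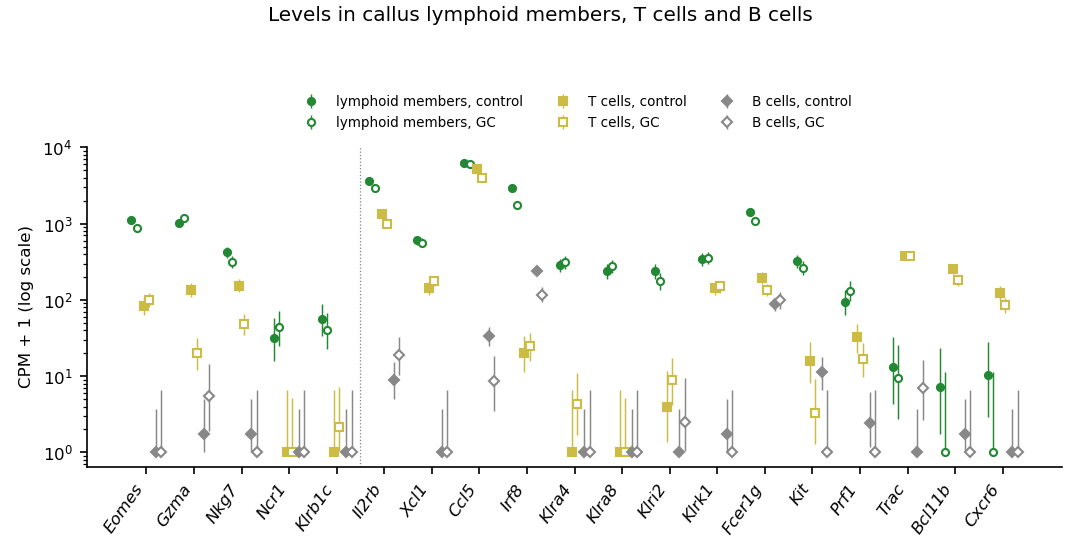
CPM + 1 on a log scale for 19 genes in lymphoid members (circles), T cells (squares) and B cells (diamonds) of the control (filled) and GC (open) callus, with exact Poisson 95% intervals; genes left of the dotted line are the rule genes. Irf8, Klra4, Klra8 and Klri2 stand far above their T cell levels in both libraries, while Trac, Bcl11b and Cxcr6 stand below.

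Of 7842 genes with at least 20 UMIs over both classes, 240 (3.06%) were at least 2-fold higher in lymphoid members than in T cells in both libraries, and 215 (2.74%) at least 2-fold lower. Rule genes, whose order the rule fixed, are left out of the list counts in this paragraph. Among activating receptor genes 7 of 12 were higher and 1 lower. Among inhibitory receptor and checkpoint genes 3 of 9 were higher, among adaptor and signalling genes 3 of 12 higher and 2 lower, and among cytotoxic effector genes 4 of 11 higher. Other genes among the 15 highest over T cells were Car2, which encodes a carbonic anhydrase (465 and 447 CPM against 40.2 and 7.88 CPM), the receptor tyrosine kinase gene Kit (319.9 and 262 CPM against 14.9 and 2.25 CPM) and the homeobox gene Hhex (191 and 182 CPM against 20.8 and 16.9 CPM). Among the 15 highest in T cells were Cxcr6 (124 and 84.4 CPM against 9.23 and 0 CPM), S100a4 (518 and 285 CPM against 58.4 and 28.5 CPM) and Tbc1d4 (159 and 117 CPM against 12.3 and 11.4 CPM), beside the CD3 genes that the rule kept at 0.

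Most genes listed for the other innate lymphoid cells had few or no UMIs, Gata3 and Calca of the ILC2 list excepted. In control and GC lymphoid members the ILC1 list summed to 61.5 and 65.6 CPM, with Il7r the most abundant. The ILC2 list summed to 175 and 251 CPM, led by Gata3, and the ILC3 list to 21.5 and 17.1 CPM, led by Ahr. The ILC3 genes Il23r, Il22, Il17a and Ccr6 had no UMI in any lymphoid member (0 of 102 and 0 of 127 cells for each, which allows shares of cells with a UMI of up to 2.94% and 2.36% at 3 counts, or 3.55% and 2.86% by the exact interval). These limits hold for cells with a UMI at this depth, not for cells that express the gene. The ILC2 genes Il5, Il13, Il17rb and Ccr8 had no UMI, and Gata3 together with Il1rl1 was found in 1 control and 2 GC cells. Gata3 alone was at 105 and 134 CPM. Gata3 and Calca were the 2 ILC2 genes that could be tested between the libraries. Their GC over control log2 ratios were 0.34 and 0.80, both within the fold. The ILC1 genes Itga1, Cxcr6 and Tnfsf10 were found in 9 of 102 and 4 of 127 cells in all, against 58 of 180 and 60 of 227 T cells. Klrg1 had 6.15 CPM in the control and none in the GC library, and S1pr5 had 6.15 and 2.85 CPM, each at or below the 9.23 and 8.55 CPM that 3 UMIs make in these sums. Cd27 (92.3 and 159.6 CPM), Itga2, which encodes CD49b (105 and 94.1 CPM), Kit and Thy1 (58.4 and 42.8 CPM) were present.

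The number of members was close in the callus libraries. They made up 1.78% (1.49 to 2.11%) of filtered barcodes in the control and 1.87% (1.57 to 2.21%) in the GC callus, a GC over control ratio of 1.05 (0.820 to 1.35). The lymphoid members made up 1.43% (1.17 to 1.73%) and 1.74% (1.45 to 2.06%), a ratio of 1.21 (0.928 to 1.59). The Mpo-led members made up 0.350% and 0.137%, a ratio of 0.390 (0.167 to 0.841). Beside these, the T cell ratio was 1.23 (1.01 to 1.50) and the B cell ratio 0.455 (0.382 to 0.540). These intervals cover counting error only, and how far libraries of 1 condition differ is not known, so none of the ratios is a test of treatment. The ratio depended on which clusters were counted: without the Mpo-led and the H2-Eb1-led cluster (31.5% of control and 14.6% of GC members) the shares were 0.869% and 1.46%, a log2 ratio of 0.75 (0.29 to 1.23) beside 0.07 for all members. Without the hemoglobin-led cluster, which held 66 GC and 8 control cells, the direction turned: the shares were 1.67% and 0.970%, a log2 ratio of -0.78 (-1.23 to -0.35), and without the Mpo-led cluster too 1.32% and 0.834%, a log2 ratio of -0.66 (-1.15 to -0.18). Leaving out a cluster that is uneven between the libraries moves the ratio by construction. These values therefore describe where the cells lay, and nothing about the cells that remain is read from them. Among barcodes with a Ptprc UMI (CD45, carried by blood cells) the members made up 4.79% and 5.07%.

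Differences between the control and GC lymphoid members were counted over all genes and over the functional lists. Of 4581 genes tested, 112 (2.44%) were at least 2-fold higher in GC and 166 (3.62%) at least 2-fold lower. Of 194 genes in the functional lists 110 could be tested, and 4 (3.64%) were higher and 7 (6.36%) lower, with a median log2 ratio of -0.01 beside -0.06 over all genes tested. The 110 hold the 5 rule genes, on which the members were selected, and none of these 5 was past the fold. The same counts over all 264 members were 120 of 6729 genes higher (1.78%) and 406 lower (6.03%), with 6 listed genes higher and 12 lower of 134. In T cells 169 of 6858 genes (2.46%) were higher and 242 (3.53%) lower, with 3 listed genes higher and 12 lower of 125. A share of listed genes near that of all genes is not a result about the lists. Counting intervals gave a second tally: of 105 listed genes other than the rule genes, 8 higher and 21 lower in GC had an interval that excluded 1, beside 230 (5.02%) and 395 (8.62%) of all 4581 genes. A gene with more UMIs has a narrower interval, so this tally depends on the depth of the genes compared. It is not read as a result about the lists. The 11 calls depended on the processing. Junb was past the fold in all 11 alternatives run, and the others lost the call in at least 1. With the 16 Mpo-led cells that had Il2rb and no Mpo added, 131 genes were higher and 326 lower, of them 6 and 11 listed genes. With the mean over cells in place of the sum, none of the 4 higher genes kept it, at 0.91 (Il18rap), 0.83 (Klra9), 0.87 (Top2a) and 0.97 (Fkbp5) on the log2 scale, and with 20 CPM added none did either.

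By role, the activating receptors came first. All 10 of their genes tested lay within a fold of 2 (median log2 ratio 0.09). They hold the rule genes Ncr1 and Klrb1c, so the median is partly drawn from values that selected the members. Klre1, whose product pairs with other lectin receptors, was nearest to a fold of 2 at 117 CPM in the control and 191 CPM in GC (ratio 1.63, interval 1.08 to 2.50). Of 6 inhibitory receptor genes, Klra9 alone was past it, at 21.5 and 48.5 CPM, on 7 and 17 UMIs, with a ratio of 2.25 whose interval of 0.887 to 6.42 includes 1. The 8 adaptor and signalling genes had a median of -0.45 with none past the fold. The 10 cytotoxic effector genes had a median of 0.24 with none past the fold, among them Prf1 with a ratio of 1.42 (0.878 to 2.33). They hold the rule genes Gzma and Nkg7, so this median too is partly drawn from values that selected the members. The 4 cytokine and chemokine genes tested had a median of -0.08.

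Of the interleukin 18 receptor genes, Il18rap was past the fold and Il18r1 was not. Interleukin 18 prompts NK cells to make interferon gamma, and Il18rap and Il18r1 encode the chains of its receptor. Il18rap was at 120.0 CPM (85.3 to 164) in the control and 254 CPM (204 to 312) in GC, a ratio of 2.11 (1.44 to 3.17) and a log2 ratio of 1.05. Il18r1 was at 138 and 219 CPM, a ratio of 1.59 (1.08 to 2.34). Thinned to 1000 UMIs, 13.9% of control and 23.6% of GC lymphoid members held Il18rap, and 8.91% and 22.0% held Il18r1. Over the alternatives the log2 ratio was between 0.66 and 1.22 for Il18rap, and between -0.36 and 1.25 (without the H2-Eb1-led cluster) for Il18r1. The lowest value of each, 0.66 and -0.36, came from the lymphoid members with Trac, Trbc1 and Trbc2 at 0 (30 control and 48 GC cells). The same genes in T cells had ratios of 0.802 (0.585 to 1.10) and 0.814 (0.628 to 1.06). The other cytokine receptor genes tested stayed within a fold of 2, among them Il2rb with a ratio of 0.799 (0.734 to 0.870).

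Homing genes came next. S1pr1, the receptor by which lymphocytes leave tissue toward sphingosine 1-phosphate in blood, was at 239.9 CPM (189.7 to 299) in the control and 473 CPM (404 to 551) in the GC lymphoid members, a log2 ratio of 0.96 that lies just within a fold of 2 and was between 0.35 (Trac, Trbc1 and Trbc2 at 0) and 1.31 over the alternatives. It was found in 16.8% and 37.0% of cells at 1000 UMIs. Cd69, an early activation gene whose product takes S1pr1 off the cell surface, was at 46.1 CPM (25.8 to 76.1) and 14.3 CPM (4.63 to 33.3), a log2 ratio of -1.41 on 15 and 5 UMIs that was between -1.74 and -0.65 over the alternatives. In T cells S1pr1 was at 868 and 985 CPM and Cd69 at 83.4 and 88.9 CPM. The chemokine receptor genes Ccr2 and Cxcr4 of the lymphoid members were close in both libraries: Ccr2 was at 418 and 470.3 CPM and Cxcr4 at 834 and 749.6 CPM. Ccr2 stood above T cells, which had 73.0 and 50.6 CPM of it. The 10 homing and adhesion genes tested had a median of 0.16, and Cd69 was the only gene of them past the fold.

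Among 14 transcription factor genes tested, Ikzf2 and Zeb2 were past a fold of 2, both lower in GC, and the list's median was -0.25. Zeb2, which acts with T-bet in late NK maturation, was at 132 and 59.9 CPM (log2 ratio -1.08) and was found in 27 of 102 and 18 of 127 cells. Ikzf2, which encodes Helios, was at 163 and 59.9 CPM (log2 ratio -1.37), on 53 UMIs in 15 control cells and 21 UMIs in 17 GC cells, so the number of cells with it was close. Over the alternatives Zeb2 was between -1.59 and -0.77 and Ikzf2 between -1.91 and -0.71, the last after thinning. Irf8 was lower within the fold, with a ratio of 0.596 (0.538 to 0.660) on 965 and 621 UMIs. Eomes, a rule gene that is also among the 14, had a ratio of 0.798 (0.683 to 0.931). The members were selected on its UMIs, so no difference is read from that ratio, and the list's median is partly drawn from it. In all members together Irf8 had a log2 ratio of -0.26 and Eomes of 0.19. The Mpo-led members, with Irf8 at 260.3 and 211 CPM, made up 54.4% and 33.3% of those sums.

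**Figure D3:**
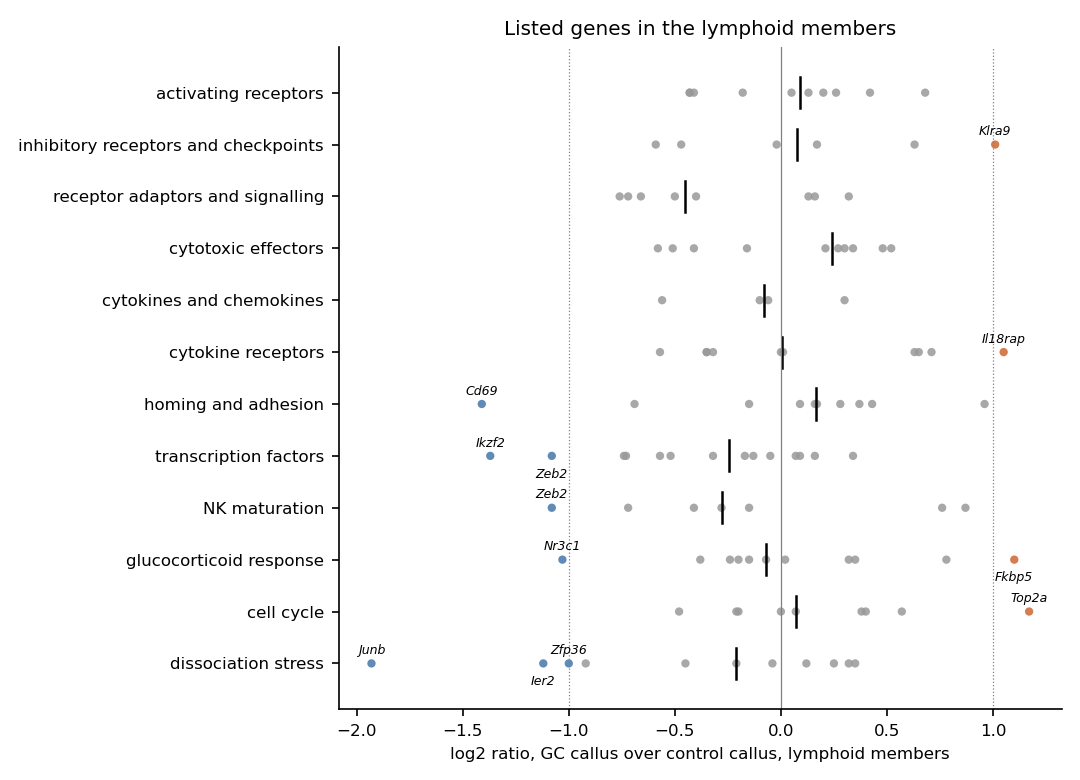
Each point is a listed gene with at least 20 UMIs in the lymphoid members, placed by its log2 ratio of GC over control CPM; vertical bars are list medians and dotted lines mark a fold of 2. In each list plotted, points lie on both sides of 0, and the genes named are the few past a fold of 2, with Junb at -1.93 the farthest.

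Most genes that answer to glucocorticoids lay within a fold of 2. Fkbp5, which encodes a chaperone of the glucocorticoid receptor and is induced by it in many cells, was at 40.0 CPM (21.3 to 68.4) in the control and 91.2 CPM (62.4 to 129) in the GC lymphoid members, a log2 ratio of 1.10 (0.82 to 1.25 over the alternatives) on 13 and 32 UMIs. Nr3c1, the receptor gene itself, was at 151 CPM (112 to 199) and 71.3 CPM (46.1 to 105), a log2 ratio of -1.03 (-1.53 to -0.80 over the alternatives). In T cells the log2 ratios were 0.77 for Fkbp5 and -0.58 for Nr3c1. Txnip was at 221 and 385 CPM (ratio 1.74, interval 1.30 to 2.35). Other genes of the list had ratios nearer to 1. Tsc22d3, which encodes GILZ, was at 203 and 194 CPM (ratio 0.955, interval 0.670 to 1.36), Per1 at 92.3 and 79.8 CPM, and Dusp1 at 228 and 231 CPM. The 11 genes tested had a median of -0.07, with 1 past the fold in each direction, beside 2.44% (higher) and 3.62% (lower) of all genes tested.

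Immediate early genes, which cells switch on soon after a stimulus or handling, held Junb, the gene of the functional lists with the largest difference. Junb was at 1043 CPM (935 to 1160.0) in the control and 271 CPM (219 to 331) in the GC lymphoid members, a log2 ratio of -1.93, and was found in 62.4% and 22.8% of cells at 1000 UMIs. Ier2 was at 329 and 148 CPM (log2 ratio -1.12) and Zfp36 at 228 and 111 CPM (ratio 0.488, interval 0.323 to 0.729), and each was within the fold in 3 of the 11 alternatives. Junb was lower in GC also in T cells, with a log2 ratio of -1.17, whereas Zfp36 there had 0.05. Fos, Jun, Fosb, Egr1 and Atf3 had log2 ratios between -2.45 and -1.82 over all members, but -0.92, -0.04, 0.25, -0.21 and -0.45 in the lymphoid members. Their lymphoid values were not stable in size, and those of Jun, Fosb and Egr1 changed sign. Fos and Atf3 stayed below 0 in each alternative in which they could be tested, and the counting interval of Fos excluded 1. Over the alternatives Fos was between -2.40 and -0.53, Jun between -2.36 and 0.52, Fosb between -1.85 and 0.91, Egr1 between -2.01 and 0.64 and Atf3 between -2.47 and -0.32. With the 16 Mpo-led cells that had Il2rb and no Mpo added, the 5 genes were between -2.47 and -1.83. The list's median was -1.74 over all members and -0.21 in the lymphoid members.

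**Figure D4:**
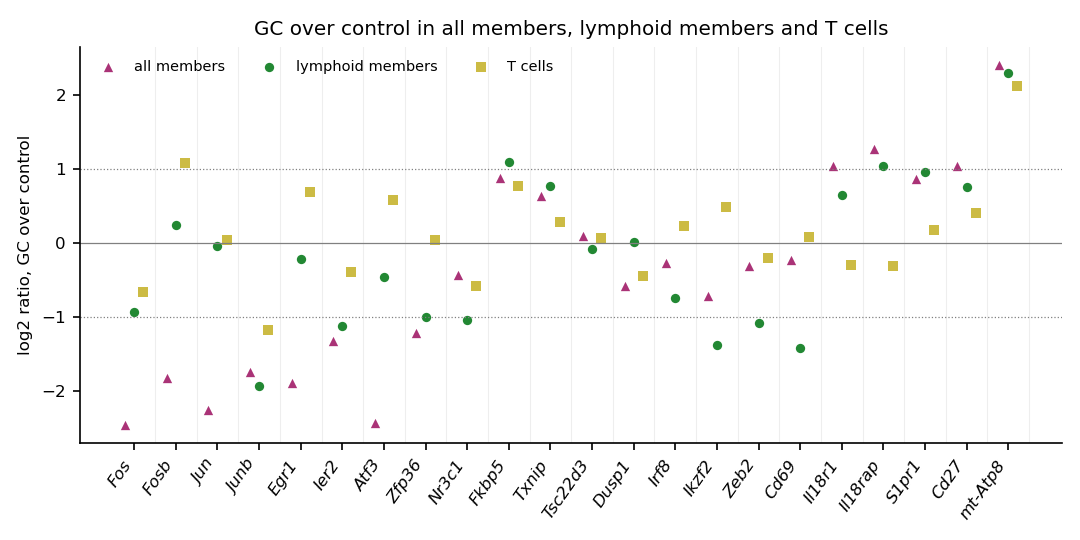
Log2 ratio of GC over control CPM for 22 genes in all members (triangles), lymphoid members (circles) and T cells (squares), with dotted lines at a fold of 2. Junb is low in all 3 classes. Jun, Egr1 and Atf3 are low mainly over all members, and Fos is lower there than in the lymphoid members, where it is also below 0. Il18r1 and Il18rap are above 0 in the members and below 0 in T cells, and mt-Atp8 is high in all 3.

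Cell cycle genes had a median log2 ratio of 0.07 over the 9 genes tested in the lymphoid members, which was between -0.67 and 0.67 over the alternatives. Top2a was past the fold, at 49.2 and 117 CPM (ratio 2.37, interval 1.30 to 4.53), but on 6 control and 11 GC cells, and its log2 ratio of 1.17 was 0.41 without the hemoglobin-led cluster. Mki67 or Top2a was found in 8 of 102 (3.45 to 14.9%) and 14 of 127 (6.16 to 17.8%) lymphoid members, intervals that overlap.

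Outside the lists, genes of the lymphoid members were ranked by their ratio. The 10 highest in GC were Hba-a1, Hba-a2, Hbb-bs, Hbb-bt, mt-Atp8, Hist1h1b, Mcm7, Zfp260, Dleu2 and Ptger4. The hemoglobin genes made 0.0138% of control and 1.13% of GC lymphoid UMIs, but 1 cell held 3157 of the 3950 hemoglobin UMIs in GC (79.9%) and 5 cells held 97.2%. mt-Atp8 was at 117 and 596 CPM in lymphoid members and 136 and 605 CPM in T cells, so it differed alike in both classes. Ptger4, a receptor for prostaglandin E2, was at 18.5 CPM (6.77 to 40.2) and 88.4 CPM (60.0 to 125), in 5 control and 22 GC cells, and at 41.7 and 45.0 CPM in T cells.

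The 10 lowest in GC were Bcl2a1b, Cish, Plin2, Sox9, Sdc3, Gpr183, Col9a2, Oxct1, Junb and Mmp13. Cish, a feedback inhibitor that cytokine signals through STAT5 induce, was at 120.0 CPM (85.3 to 164) and 17.1 CPM (6.28 to 37.2), in 23 of 102 and 6 of 127 cells. Bcl2a1b, a survival gene of the BCL2 family with near-identical copies, was at 108 and 11.4 CPM, in 22 and 4 cells. Plin2, which encodes a coat protein of lipid droplets, was at 73.8 CPM (47.3 to 109.9) and 8.55 CPM (1.76 to 25.0), in 18 and 3 cells. All 3 were lower in GC in T cells as well, with log2 ratios of -1.02 for Cish, -1.03 for Bcl2a1b and -0.85 for Plin2. In the lymphoid members Cish, Bcl2a1b and Plin2 were past the fold in each alternative in which they could be tested (8, 8 and 7). Sox9, Col9a2 and Mmp13 are chondrocyte genes, and the whole list of 10 chondrocyte markers summed to 4313 CPM in control and 1724 CPM in GC lymphoid members, with Col2a1 the most abundant, none at 0 and 9 of 10 at least 2-fold lower. In T cells the same list summed to 4065 and 5493 CPM. The part of chondrocyte RNA in the lymphoid differences was not tested.

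The ranking over all 264 members held genes with most of their UMIs in 1 cell and genes spread over many. Of the 10 lowest genes in GC (Igfbp7, Igfbp3, Slco2b1, Id1, Col4a2, Col4a1, Cxcl2, Tm4sf1, Ly6a and Nrp2), every gene had at least 86.5% of its UMIs in the Mpo-led members. For Col4a1, 104 of 113 UMIs came from 1 cell, for Igfbp3 39 of 40, and for Ly6a 44 of 46, while for Cxcl2 it was 76 of 169. Among the 10 highest, Prg3 had 33 of 41 UMIs in 1 cell and Htra1 34 of 50, both in the Mpo-led members. Cd28, a costimulatory receptor gene, Ptger4, mt-Atp8 and Trim59 were spread over more cells. Cd28 was at 52.3 and 131 CPM in lymphoid members (log2 ratio 1.25), in 15 control and 33 GC cells.

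Markers of other cell types were counted over their whole lists in the lymphoid members. The monocyte and macrophage list summed to 43.1 CPM in the control and 37.1 CPM in GC, with C1qb and Fcgr1 at 0 and Lyz2 the most abundant. The mast cell and basophil list summed to 18.5 and 25.7 CPM with 8 of 10 genes at 0, and the neutrophil list to 188 and 125 CPM, led by S100a9. The progenitor list summed to 366 and 302 CPM, of which Kit gave most, with Mpo, Elane, Prtn3, Ctsg, Ms4a3, Cd34 and Gata1 at 0. The plasmacytoid dendritic cell list summed to 3365 and 2129 CPM through Irf8, with Ccr9, Cd300c, Ly6d, Spib and Klk1 at 0. The stromal and bone-forming list summed to 2667 and 1636 CPM, led by Sparc, and the endothelial list to 138 and 105 CPM, led by Pecam1. In the T cell list Cd3d, Cd3e, Cd3g, Cd4, Cd8a and Cd5 were at 0, 3 of them by the rule, and Trbc1 was the most abundant. The B cell list summed to 218 and 182 CPM, led by Ighm, with Cd79a (by the rule) and Cd79b at 0. The conventional dendritic cell list summed to 359.9 and 219 CPM, led by Ccr7, with Xcr1, Clec9a and Cd209a at 0, and the osteoclast list to 738 and 524 CPM, led by Nfatc1, with Ocstamp, Dcstamp and Oscar at 0. The part of other cell types in the differences between the libraries was not tested.

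The 229 lymphoid members fell into 5 clusters of 74, 60, 41, 29 and 25 cells. In them Il2rb was between 2811 and 4568 CPM and Irf8 between 1949 and 3083 CPM, while Mpo had no UMI in any. The largest held 66 GC and 8 control cells and was led by the hemoglobin genes, although 5 cells held 97.2% of the hemoglobin UMIs of the GC lymphoid members. The next cluster held 40 control and 20 GC cells and was led by H2-Eb1, Ikzf2, Ret and Cd7, with Cd74 at 124 CPM. The third held 28 control and 13 GC cells and was led by Ifng, at 171 CPM against 0 to 22.6 CPM in the other 4. The clusters of 29 cells (14 control and 15 GC) and 25 cells (12 control and 13 GC) were near even between the libraries. None of the 5 was given a name. With a lower resolution the members split into the same 35 Mpo-led cells and 229 others.

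At a higher resolution the Mpo-led members themselves divided. A cluster of 25 cells, 18 control and 7 GC, kept Mpo (2345 CPM), Prtn3 and Elane at the head and had Eomes at 33.6 CPM. A cluster of 10 cells, 7 control and 3 GC, was led by Mpeg1, Cxcl2 and Il1b, genes of monocytes and macrophages, with Lyz2 at 2199.8 CPM, and also had Eomes at 395 CPM and Il2rb at 1839 CPM. Scoring of simulated doublets removed no other Mpo-led member than the 11 named above, and 0 of the 229 lymphoid members. Mpo itself was found in 9 of 25 control and 6 of 10 GC Mpo-led members, so the cluster's leading gene was not in every cell of it.

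The same rule took other cells in trabecular bone. It found 79 members of 3977 filtered barcodes in the control and 141 of 4788 in the GC library, 1.99% (1.58 to 2.47%) and 2.94% (2.48 to 3.46%), with median depths of 28314 and 24561 UMIs. All of them held Nkg7, and 70 of 79 and 114 of 141 held no other rule gene, against 12 of 127 and 6 of 137 in the callus. Mpo was found in 67 of 79 and 105 of 141. Eomes together with Il2rb was found in 3 of 79 (3.80%) and 16 of 141 (11.3%), against 99 of 127 (78.0%) and 114 of 137 (83.2%) in the callus. In the callus the rule took mainly cells with Eomes and Il2rb, and in trabecular bone mainly cells with Nkg7 and Mpo.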

How the data were processed

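Single-cell RNA-Seq libraries were made with a 10x Genomics kit (v2, per the labels). The deposited matrices hold UMI counts per gene and barcode, made by the authors with Cell Ranger and not normalized. The matrix headers name version 4 (3 libraries) and 4.0.0 (GC callus), while the submitters' processing notes name Cell Ranger 5.0.1, Seurat 3.2.0 and mm10. The GC callus matrix lists 7762 barcodes, the other 3 matrices 6794880 each, so free RNA outside cells could not be compared between the callus libraries. The 4 libraries held barcodes with at least 500 UMIs numbering 7571 (control) and 7762 (GC) in callus, and 4230 (control) and 5587 (GC) in trabecular bone. At the depth of the lymphoid members 3 UMIs make 9.23 CPM (control) and 8.55 CPM (GC).

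The members, the gene lists (31 lists, 316 of 318 genes found) and the tests were chosen with earlier results of these data known. UMIs were summed over cells of a class. Clusters came from Leiden clustering (scanpy 1.11.5, leidenalg 0.10.2; 1000 variable genes without the rule, cell cycle, dissociation, glucocorticoid and interferon genes, 15 components, 15 neighbours, resolution 0.8). A cluster with at least 3 markers of 1 other class (erythroid aside), and more than of NK and innate lymphoid cells, among its 10 leading genes was left out of the lymphoid members, a criterion set after the clusters were seen. No doublet caller was used in the main results. Genes named were those of the lists, the 10 highest and 10 lowest GC over control ratios with at least 50 CPM in 1 library and 20 UMIs over both (all members, repeated for lymphoid members), and the 15 highest over and under T cells; some listed genes are not reported here. Coordinates are from GENCODE M21 (GRCm38, the mm10 assembly), which matched 32158 of 32285 gene IDs. The ratio, interval and thinning code was checked on simulated data. Python 3.11.15, numpy 2.4.6, scipy 1.17.1 and pandas 2.3.3 were used. Alternatives changed the rule, filters, depth, pseudocount, scale and clustering.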

Additional observations from a re-analysis of the deposited data

Results flagged for a closer look

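A listed gene was picked out where its GC over control difference had opposite signs in lymphoid members and in T cells of the callus and both counting intervals excluded 1. The difference between the classes was not tested, since each condition had 1 library. Ikzf2 (Helios) had a log2 ratio of -1.37 in lymphoid members and 0.49 in T cells. Top2a, a gene of dividing cells, had 1.17 in lymphoid members and -0.81 in T cells. Over the alternatives the lymphoid value was between -1.91 and -0.71 for Ikzf2 and between 0.41 and 2.12 for Top2a. At least 1 of the T cell receptor genes Trac, Trbc1 and Trbc2 was found in 70.6% of control and 62.2% of GC lymphoid members. With these genes at 0 neither Ikzf2 nor Top2a reached 20 UMIs in the lymphoid members, and over all members both turned sign, Ikzf2 from -0.71 to 0.81 and Top2a from 0.62 to -0.24. Rule genes were left out of this comparison, since the rule chose the members on them.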

How the results depend on the processing

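No paired analysis was possible because each condition had 1 library and the labels give no replicate numbers. For the same reason leaving out a library gave no value. The GC over control log2 ratio of the members' share (0.07) stayed within its counting interval of -0.29 to 0.43 under every alternative run but 4, each chosen after seeing the data. It was 0.75 without the Mpo-led and H2-Eb1-led clusters, on shares of 0.869% (control) and 1.46% (GC), and 0.64 in lymphoid members with Trac, Trbc1 and Trbc2 at 0 (0.421% and 0.656%). It turned to -0.78 without the hemoglobin-led cluster (GC share 0.970%) and -0.66 without the Mpo-led and hemoglobin-led clusters (1.32% and 0.834%). The clusters left out were uneven between the libraries, so the ratio had to move when they were removed. The shares themselves moved with the rule. In the control callus the share was 2.12% with at least 2 rule UMIs, 1.35% with at least 5 and 1.43% without the Mpo-led cluster. In the GC callus it was 1.16% with at least 5. With Trac, Trbc1 and Trbc2 also at 0 the shares were 0.603% (control) and 0.752% (GC), with cells thinned to 1000 UMIs and at least 1 rule UMI 2.15% and 2.42%, and among barcodes with a Ptprc UMI 4.79% and 5.07%.

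Counts of genes past a fold of 2 depended on the floor. Over all members, 182 genes were higher in GC with a pseudocount of 1 CPM, 36 higher and 158 lower with 20 CPM, 39 and 163 with at least 50 UMIs, 369 and 1021 with no minimum, 202 higher with the mean over cells, 123 lower after thinning and 166 lower without the Mpo-led cluster. Of the listed genes over all members, 2 were higher with 20 CPM, 10 with no minimum, 2 with the mean over cells, 3 after thinning and 13 with Trac, Trbc1 and Trbc2 at 0, and 7 were lower without the Mpo-led cluster. Signs changed too. Of the values of named genes over all members, 13 of 351 had the other sign than the main setting. With the main value first, they were Fosb (-1.82 against 0.25), Eomes (0.19 against -0.32), Il2rb (0.11 against -0.32) and Xcl1 (0.20 against -0.10) without that cluster, Ikzf2 (-0.71 against 0.81), Irf8 (-0.26 against 0.45), Top2a (0.62 against -0.24) and Nr3c1 (-0.43 against 0.10) with Trac, Trbc1 and Trbc2 at 0, Cd69 (-0.22 against 0.02) with at least 5 rule UMIs, and Eomes and Il2rb also with the mean over cells and after thinning. In the lymphoid members 14 of 287 did, in 6 genes: Fosb, Egr1, Jun, Xcl1, Il18r1 (0.65 against -0.36 with Trac, Trbc1 and Trbc2 at 0) and Cd27 (0.76 against -0.20 without the hemoglobin-led cluster). For the lymphoid members, in alternatives chosen after seeing the data, 39 genes were higher and 63 lower with 20 CPM (listed genes 0 and 3), 28 and 52 with at least 50 UMIs (2 listed genes higher) and 95 lower after thinning (2 listed genes higher, 0 of them among the 4 of the main setting), and 1 listed gene was higher with the mean over cells, which was 0 of the 4. With the 16 Mpo-led cells that had Il2rb and no Mpo added, 326 genes were lower, 11 of them listed. Of the values of named genes, 220 of 287 in the lymphoid members and 295 of 351 over all members kept both the sign and the side of the fold. Of the list medians, 116 of 131 and 147 of 164 stayed within their spread, and 15 and 28 had the other sign. The cause of these shifts was not tested. The share of Mpo-led cells stayed within its counting interval at resolutions 0.4 and 1.2 and with 10 components, at 19.7% (control) and 7.30% (GC) in the main setting.

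Limits: 1 library per condition, an unknown number of mice, and 325071 and 350841 UMIs behind the lymphoid sums, so that a gene at the 20 UMI minimum carries a wide interval. Differences of the libraries as a whole, such as that of mt-Atp8, cannot be told apart from treatment.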
